A study of Homo sapiens with 11 samples.

Results

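Tight junction, desmosome and catenin genes were followed as a set of 39 in lung adenocarcinoma cells that carried TRIM58-WT or an empty vector. The members were named by symbol as the junction proteins of simple epithelium, together with EPCAM and the matriptase system, and they were 39 of 20249 genes with a named probe on the arrays. Each gene was represented by the probe with the highest mean signal over all 11 arrays. By role they were 12 desmosome genes, 14 tight junction membrane genes, 6 tight junction scaffold and polarity genes, 3 catenins, and 4 genes of EPCAM and the matriptase system. All 39 had a probe.

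The 11 one-colour Agilent arrays measured RNA in 4 groups of 2 lung adenocarcinoma lines, A549 and HCC827. The A549 mock group had 3 replicates on 4 arrays (the arrays labelled mock 1-1 and 1-2 were averaged to 1 replicate) and A549 TRIM58-WT had 3. HCC827 mock and HCC827 TRIM58-WT had 2 replicates each. All groups had been infected with the pMXs-Neo retrovirus and selected with G418. The mock cells carried the empty vector and the TRIM58-WT cells the FLAG-tagged coding sequence of TRIM58, an E3 ubiquitin ligase of the tripartite motif family. The study describes its stably transfected A549 cells as clones and its HCC827 cells as crude transfectants, and how the cells on these arrays were derived is not in the labels. The labels do not say whether numbered replicates were separate clones or separate cultures, so every p-value measures only the spread between these samples, which may be technical.

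Epithelial cells are held together by several junctions. Tight junctions seal the space near the apical surface: claudins, occludin and JAM-family proteins span the membrane, while ZO proteins (TJP genes) and cingulin link them to actin, and the Crumbs and PAR complexes set the apical border. Desmosomes join intermediate filaments of neighbouring cells through desmogleins and desmocollins, which bind plakoglobin (JUP) and plakophilins and, through these, desmoplakin (DSP). Catenins connect cadherins to actin, and CTNNB1 also serves WNT signalling. EPCAM is an epithelial adhesion protein that binds claudins and is cleaved by the membrane protease matriptase (ST14), which SPINT1 and SPINT2 inhibit. Lung adenocarcinoma lines vary widely in how much of this machinery they keep.

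Levels are given as log2 signal minus the 75th percentile of the array, so a level of 0 equals that percentile and a difference of 1 is 2-fold. Levels are compared for 1 probe between samples and never between probes. A gene was tested if all arrays of 1 or more of the groups compared showed its probe well above background, and it was called at an adjusted p under 0.05 and at least a 2-fold change. Of the 39 members, 19 were well above background on all 11 arrays and 15 on some. DSC3, DSG3 and PKP1, of the desmosomes of stratified epithelium, and CLDN10 and CLDN18, the latter an alveolar and gastric claudin, stood well above background on none of the arrays.

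Some arrays stood apart or went against their labels. On none of the arrays labelled TRIM58-WT, in either line, did the TRIM58 probe stand well above background. It was well above background only on A549 mock 3, at -0.71 against -5.28, -5.33 and -5.18 on the other A549 mock arrays. The sources used here do not say whether the probe lies in the introduced sequence. A549 mock 3 also differed from the other A549 mock arrays over the probes tested in A549: the SD of the log2 difference was 0.679 to 0.817, against 0.286 to 0.459 among the others. A549 TRIM58-WT 2 and 3 differed by an SD of 0.24, less than the 0.286 between the arrays of mock replicate 1, and both differed from TRIM58-WT 1 by 0.79 to 0.824. The 75th percentile signal was 56.6 to 62.5 on mock 3, TRIM58-WT 2 and TRIM58-WT 3, and 90.5 to 103 on the other A549 arrays. Line markers followed the labels, with AKR1B10 and ALDH1A1 high in A549 and CDKN2A and EGFR high in HCC827. Counts that rest on these arrays are given with and without them below.

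Many tight junction, desmosome and EPCAM genes were lower in A549 TRIM58-WT than in A549 mock. The members were chosen with earlier results of these data known. Shares over all genes, here and below, are thus no test of the set. Of the 39 members 27 could be tested, 13 fell and 0 rose. Over all 11183 genes tested 4.10% fell and 3.90% rose. The median change of the tested members was -1.10 on the log2 scale, against 0.027 over all genes tested. The 13 were CGN, EPCAM, JUP, CRB3, CLDN4, TJP3, SPINT2, F11R, PKP2, LSR, CLDN3, PPL and CLDN12. In 18 of the 27 every TRIM58-WT replicate lay below every mock replicate, and in 1, PARD3, every one lay above. Over all genes tested 17.1% lay apart below and 16.9% lay apart above. A member that passed the filter only through the mock group had to differ, as was so for CGN, CLDN4, TJP3, PPL, EPCAM and PKP2, so the count of 13 is no count over all 39. Among the 21 members tested under the rule of every array well above background, 7 fell: JUP, SPINT2, CRB3, F11R, LSR, CLDN3 and CLDN12. Under that rule 2.07% of 14943 probes fell and 2.43% rose.

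**Figure D1:**
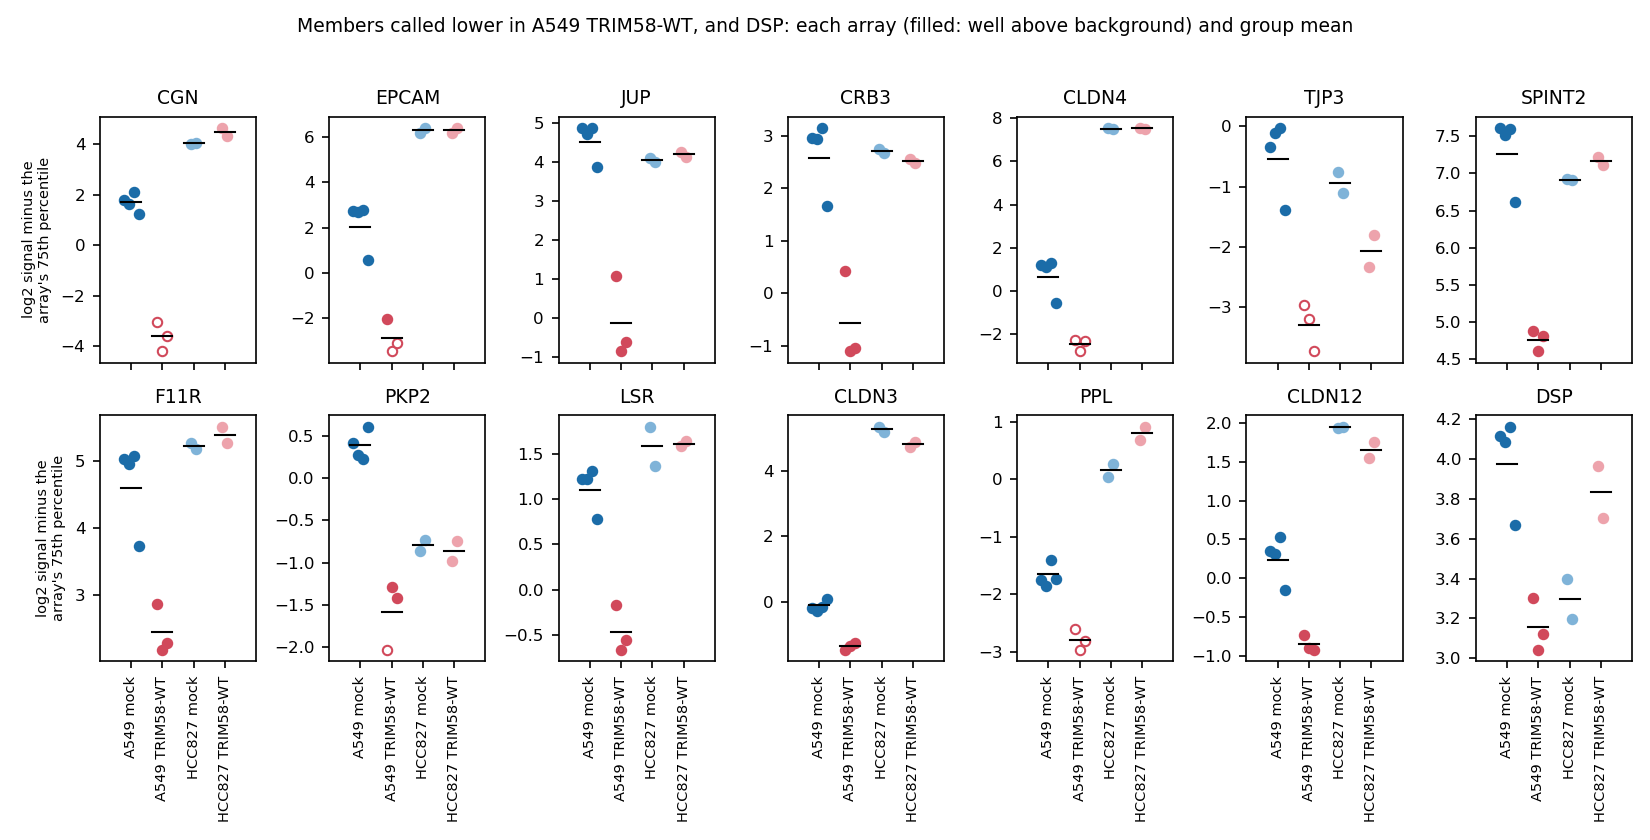
Level on each array (log2 signal minus the 75th percentile of the array, y axis, its range set per gene) for the 13 members that fell in A549 TRIM58-WT and for DSP, by group on the x axis. Filled points were well above background, open points were not, and the black line is the group mean over replicates. All A549 TRIM58-WT points lie below all A549 mock points in each panel, while the HCC827 points of both groups lie close together for most genes, TJP3 and PPL least so.

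The scaffold and polarity genes held the largest fitted fall, and 3 of 6 tested fell. CGN encodes cingulin, a cytoplasmic plaque protein of tight junctions. Its level was 1.72, 2.12 and 1.23 in the A549 mock replicates and -3.04, -4.21 and -3.61 in the TRIM58-WT replicates. The groups did not overlap, and no TRIM58-WT array was well above background. The fitted change was -5.31 ± 0.36 (SE, n = 3 and 3, adjusted p = 0.0012), and against the background limit CGN was at least 19.9-fold lower. CRB3, the Crumbs protein of epithelial cells and a determinant of the apical domain, stood at 2.94, 3.15 and 1.66 in mock and at 0.42, -1.11 and -1.04 in TRIM58-WT. TRIM58-WT 1 lay above the other TRIM58-WT replicates and mock 3 below the other mock replicates, without overlap between groups. CRB3 fell by 3.16 ± 0.55 (SE), 8.92-fold (adjusted p = 0.0225).

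TJP3 encodes ZO-3, a scaffold found mainly in epithelial tight junctions. It stood at -0.22, -0.02 and -1.39 in mock, against -2.97, -3.20 and -3.74 in TRIM58-WT, where no array was well above background. TJP3 was at least 4.24-fold lower (fitted change -2.76 ± 0.40, SE; adjusted p = 0.0131). The other scaffold genes were not called. TJP1, which encodes ZO-1, was at 2.43, 2.43 and 2.87 in mock and at 2.23, 2.76 and 2.79 in TRIM58-WT, and these groups overlapped (difference 0.02, 95% interval -0.54 to 0.57, adjusted p = 0.974). PARD6B differed by 0.19 (interval -0.29 to 0.67). PARD3, the PAR polarity scaffold, was 0.61 higher on the chosen probe, with mock at 3.48 to 3.87 and TRIM58-WT at 4.07 to 4.41, but missed the threshold (adjusted p = 0.0967).

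Among the tight junction membrane genes 5 of the 7 tested fell, and none was higher. CLDN4, a barrier claudin, was at 1.17, 1.31 and -0.53 in mock and at -2.26, -2.79 and -2.29 in TRIM58-WT, with mock 3 between the others. CLDN4 was at least 8.01-fold lower (fitted change -3.10 ± 0.51, SE; adjusted p = 0.0182). F11R, which encodes JAM-A, stood at 4.99, 5.07 and 3.72 in mock and at 2.87, 2.18 and 2.28 in TRIM58-WT. The F11R groups did not overlap, and the gene fell by 2.15 ± 0.41 (SE), 4.44-fold (adjusted p = 0.028). Its other probe fell by 1.57 (adjusted p = 0.0493).

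LSR, CLDN3 and CLDN12 fell less. LSR encodes angulin-1, which places proteins at the contacts of 3 cells. It stood at 1.22, 1.31 and 0.78 in mock, against -0.17, -0.67 and -0.55 in TRIM58-WT, a fall of 1.57 ± 0.22 (SE, adjusted p = 0.0125). CLDN3, a barrier claudin, was at -0.25, -0.16 and 0.10 in mock and at -1.48, -1.36 and -1.26 in TRIM58-WT, a fall of 1.26 ± 0.17 (SE, adjusted p = 0.0105). CLDN12, an atypical claudin, was at 0.33, 0.53 and -0.15 in mock and at -0.74, -0.90 and -0.93 in TRIM58-WT, a change of -1.10 ± 0.22 (SE, adjusted p = 0.0311). None of these groups overlapped. CLDN1 differed by -1.10 with groups that did not overlap (0.91 to 1.48 in mock, -0.57 to 0.47 in TRIM58-WT) but was not called (adjusted p = 0.0854). CLDN2, a channel-forming claudin, was at 4.15, 4.23 and 4.12 in mock and at 4.46, 2.65 and 2.70 in TRIM58-WT, so that TRIM58-WT 1 lay above mock and the other replicates below (adjusted p = 0.321). The other membrane genes did not reach the filter in A549. On the chosen probes CLDN7 was well above background on 3 of 4 mock arrays and on none of the TRIM58-WT arrays, CXADR on 3 of 4 and 1 of 3, MARVELD2 on 3 of 4 and 1 of 3, and OCLN and MARVELD3 on none. The unchosen CXADR probe, which could be tested, differed by -2.09 (adjusted p = 0.0657).

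In the desmosome class JUP, PKP2 and PPL fell among 8 genes tested. JUP encodes plakoglobin, the armadillo protein that both desmosomes and adherens junctions use. JUP stood at 4.79, 4.88 and 3.87 in mock and at 1.09, -0.85 and -0.61 in TRIM58-WT, well above background on every array. The groups were far apart, with mock 3 the lowest mock and TRIM58-WT 1 the highest TRIM58-WT value. JUP fell by 4.64 ± 0.56 (SE), 24.9-fold (adjusted p = 0.00746). PKP2, a plakophilin that links desmosomal cadherins to desmoplakin, was at 0.35, 0.22 and 0.61 in mock and at -2.04, -1.29 and -1.42 in TRIM58-WT. TRIM58-WT 1 was not well above background. PKP2 fell by a fitted 1.98 ± 0.25 (SE, adjusted p = 0.00813), and here mock 3 was the highest mock value and TRIM58-WT 1 the lowest TRIM58-WT value. PPL, which encodes the plakin periplakin, was at -1.80, -1.40 and -1.74 in mock and at -2.59, -2.97 and -2.82 in TRIM58-WT, where no array was well above background. PPL was at least 1.87-fold lower (fitted change -1.15 ± 0.19, SE; adjusted p = 0.019).

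DSP, which encodes the plakin that ties desmosomes to keratin, was 0.82 ± 0.20 (SE) lower in A549 TRIM58-WT and fell short of the call (adjusted p = 0.0515, under 2-fold). Mock stood at 4.10, 4.16 and 3.67 against 3.30, 3.04 and 3.12 in TRIM58-WT, without overlap. DSC2, a desmocollin, was well above background on 2 of 4 mock arrays and on no TRIM58-WT array, and was not tested. DSG2, the desmoglein of simple epithelium, differed by -0.63 and PKP3 by -0.59, neither called. EVPL, a plakin, differed by -0.0011 with an interval of -0.41 to 0.40, and PKP4 by 0.36. The A549 falls of the class thus lay in 2 armadillo-family proteins, JUP and PKP2, and in the plakin PPL. No test compared members with each other.

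None of the 3 catenins was called. CTNNA1, the alpha-catenin of epithelial cells, was at 4.67, 4.90 and 3.73 in A549 mock and at 3.48, 2.85 and 2.99 in TRIM58-WT. The groups lay apart, but the difference of -1.33 ± 0.35 (SE) missed the threshold (adjusted p = 0.0672). CTNNA1 lies on chromosome 5, where the median change of 490 tested genes was -0.48, the lowest of any chromosome after chromosome 8, and the part of this in its value was not tested. CTNNB1, which encodes beta-catenin, was at 3.76, 3.92 and 4.31 in mock and at 3.53, 4.37 and 4.44 in TRIM58-WT (difference 0.12, interval -0.60 to 0.83, adjusted p = 0.848). CTNND1, p120-catenin, which steadies cadherins at the membrane, was at 0.80, 0.98 and 0.50 in mock and at 0.37, 0.23 and 0.28 in TRIM58-WT (difference -0.47, adjusted p = 0.167). The beta-catenin groups overlapped and the p120-catenin groups did not. JUP and CTNNB1 are close relatives among armadillo proteins, and set side by side JUP fell by 4.64 while CTNNB1 differed by 0.12.

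EPCAM and SPINT2 fell. EPCAM was at 2.72, 2.78 and 0.59 in A549 mock and at -2.0, -3.45 and -3.08 in TRIM58-WT, where 1 of 3 arrays was well above background. Mock 3 lay between the other mock replicates and TRIM58-WT, without overlap. EPCAM fell by a fitted 4.88 ± 0.68 (SE, adjusted p = 0.0117), a size that rests mostly on arrays not well above background. SPINT2, a Kunitz inhibitor of matriptase, was at 7.57, 7.60 and 6.61 in mock and at 4.87, 4.60 and 4.81 in TRIM58-WT, and fell by 2.50 ± 0.30 (SE), 5.65-fold (adjusted p = 0.00718). ST14, the protease itself, was spread widely in TRIM58-WT (-2.42, 0.04 and -0.07) and in mock (-1.67, -1.17 and -0.33), and was not called (difference 0.24, interval -1.49 to 1.97). SPINT1 was well above background on 2 of 4 mock arrays and on no TRIM58-WT array, and was not tested.

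Most A549 calls were lost when single replicates were left out. Mock 3 lay below the mean of mock 1 and 2 in 11 of the 13 genes, all of them but PKP2 and CLDN3, and the mean of TRIM58-WT 2 and 3 lay below TRIM58-WT 1 in 11 of the 13, all but the same PKP2 and CLDN3. Without mock 3, 15 members fell, the 13 with CTNNA1 and CLDN7. Without TRIM58-WT 1, 14 fell, the 13 with CLDN2. Without mock 1, 3 fell, and without mock 2, TRIM58-WT 2 or TRIM58-WT 3, 4 fell each time. Calls over all probes moved the same way. With all replicates 580 of 16924 probes fell, against 1147 of 18182 without mock 3 and 785 of 17188 without TRIM58-WT 1. Without mock 1 it was 172 of 17064, without mock 2 206 of 17055, without TRIM58-WT 2 202 of 17302 and without TRIM58-WT 3 181 of 17178. With the near-alike TRIM58-WT 2 and 3 averaged to 1 replicate, JUP, PKP2, CGN and SPINT2 remained called (adjusted p = 0.0374, 0.0348, 0.00788 and 0.0415). CGN, JUP and SPINT2 kept their call whichever replicate was left out. The change of each of the 13 stayed below 0 in all of these fits. The arrays lay on 2 slides, and each of the 13 was lower in TRIM58-WT within both slides, JUP for example by -3.78 on slide 1 and -5.02 on slide 2, and CGN by -5.00 and -5.34. Slide 1 held 1 TRIM58-WT array and slide 2 the near-alike TRIM58-WT 2 and 3, and mock replicate 1 lay on both slides. The slides are thus not independent repeats.

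**Figure D2:**
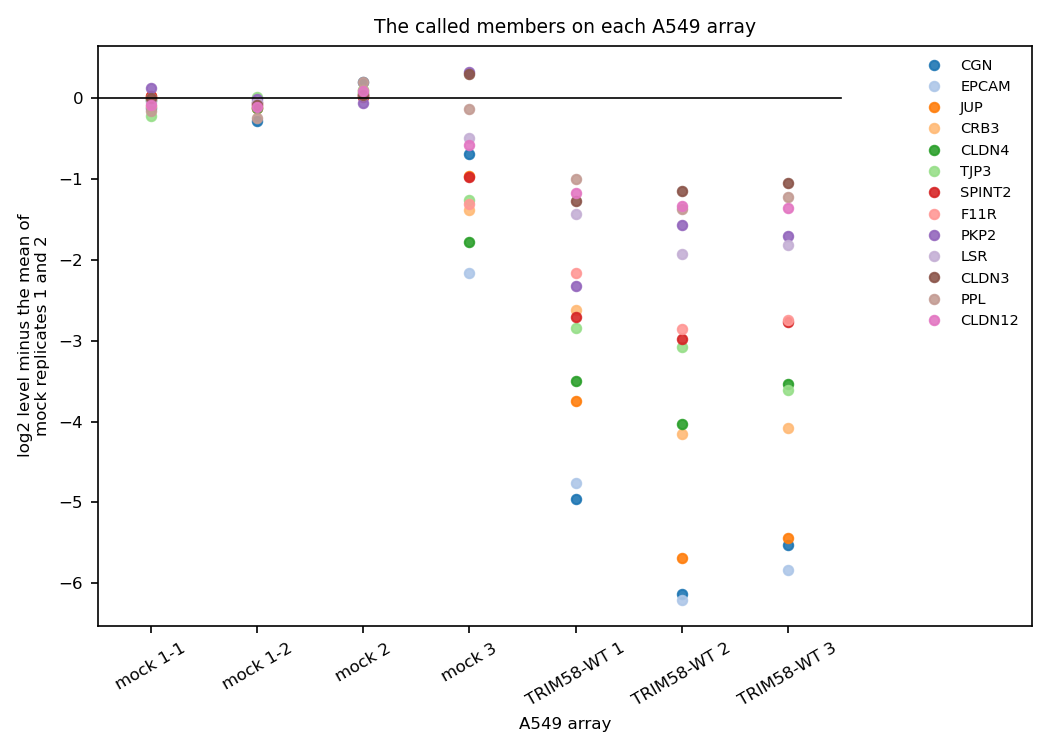
Level of each of the 13 members that fell, on each of the 7 A549 arrays (x axis), as log2 level minus that member's mean over mock replicates 1 and 2 (y axis), 1 point per member and array. On mock 3 the points spread from -2.17 for EPCAM to 0.33 for PKP2, and on the 3 TRIM58-WT arrays every point lies below every point of the other mock arrays.

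Promoter sequence of JUP, CRB3, CLDN4 and CGN is shown because these genes, of the 5 largest fitted falls, had a window in the RefSeq table. The table (build GRCh38.p14) had windows for 26 of the 39 members, and for 8 of the 13 that fell. A window ran from 250 bases before to 50 after a gene start, and a gene with several starts had several windows, which can overlap. They were searched on both strands for the E-box CAGGTG, which ZEB and SNAIL family repressors bind, and for AACCNGGTT, a motif of grainyhead factors, which act in epithelial cells. The E-box letters were in 13 of 42 windows of members (31.0%), against 20.6% of 35116 windows of all genes. The grainyhead letters were in 0 of 42, against 0.239% of all windows. For CRB3, CLDN4 and CGN the 250 bases before the start are given, and for JUP the 17 bases that span its matches, all 5′ to 3′ along the gene, with the E-box letters of either strand in capitals.
JUP, chr17:41786014-41786030, minus strand: CACCTGccgagCAGGTG
CRB3, chr19:6464021-6464270, plus strand: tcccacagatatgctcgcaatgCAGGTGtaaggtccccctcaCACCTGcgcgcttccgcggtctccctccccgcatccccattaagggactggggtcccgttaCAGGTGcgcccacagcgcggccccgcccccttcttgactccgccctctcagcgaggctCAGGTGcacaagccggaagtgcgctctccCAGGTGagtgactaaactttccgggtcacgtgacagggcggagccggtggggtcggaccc
CLDN4, chr7:73830746-73830995, plus strand: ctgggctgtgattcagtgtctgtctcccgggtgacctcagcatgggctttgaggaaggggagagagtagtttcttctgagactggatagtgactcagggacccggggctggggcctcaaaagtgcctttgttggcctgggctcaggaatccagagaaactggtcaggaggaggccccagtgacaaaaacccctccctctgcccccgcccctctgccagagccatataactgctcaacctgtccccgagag
CGN, chr1:151511137-151511386, plus strand: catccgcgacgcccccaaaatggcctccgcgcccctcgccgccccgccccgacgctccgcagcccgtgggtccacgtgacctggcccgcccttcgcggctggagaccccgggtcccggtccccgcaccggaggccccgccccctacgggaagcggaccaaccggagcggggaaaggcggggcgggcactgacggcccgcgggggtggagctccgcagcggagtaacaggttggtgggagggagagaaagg

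CRB3 held the E-box letters 5 times, at 228, 208, 147, 89 and 60 bases before the start. JUP held them at 1 of its 2 starts, 54 and 43 bases before it. TJP3 held them once at 1 of its 2 starts, 7 bases before it, and CLDN3 once, 37 bases into the transcribed part. CGN, which had the largest fitted fall, and CLDN4, CLDN12 and LSR held them in no window. Of members tested in A549 and not called, DSP, DSG2 and TJP1 held them too, the last 88 bases before 1 of its starts. CLDN7 (5 times at 1 of 2 starts), OCLN, SPINT1, DSC2 and CLDN18, which were not tested in A549, also held them. A match is a run of letters and not a site.

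In HCC827 none of the members was called. Of 33 tested, 0 fell and 0 rose in limma, against 0.755% of 12180 genes that fell and 0.328% that rose. At an unadjusted p under 0.05 there were 8, of which 3 were lower and 5 higher, and the unmoderated test of the study's methods also called 0. The median change was 0.12, against 0.0079 over all genes tested. Changes ran from -1.14 for TJP3 to 1.12 for CLDN1, and the lowest adjusted p was 0.121. With 2 replicates a group the intervals were wide for some members, so that CLDN1 lay between -0.99 and 3.23. Of the 33, 12 had both TRIM58-WT replicates above both mock replicates and 9 had both below. The share over all genes was not computed for HCC827, so no conclusion is drawn from groups of 2 that do not overlap.

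Members that fell in A549 are given first by their HCC827 values. CRB3 was at 2.75 and 2.67 in mock and at 2.55 and 2.47 in TRIM58-WT (difference -0.20), and F11R at 5.27 and 5.17 against 5.51 and 5.27 (difference 0.17). SPINT2 was at 6.93 and 6.91 in mock and at 7.23 and 7.11 in TRIM58-WT (difference 0.25). LSR was at 1.80 and 1.37 against 1.59 and 1.63 (difference 0.03). On the chosen probes these differences were small beside the A549 falls of the same genes, and the F11R and LSR groups overlapped. The other F11R probe differed by -0.72 in HCC827 (adjusted p = 0.336), against -1.57 in A549. CLDN3 was at 5.35 and 5.18 in mock and at 4.73 and 4.89 in TRIM58-WT (difference -0.46), and CLDN12 at 1.93 and 1.96 against 1.56 and 1.75 (difference -0.29). PKP2 was at -0.87 and -0.73 in mock and at -0.98 and -0.74 in TRIM58-WT (difference -0.06). Both claudins lay lower in TRIM58-WT without overlap, and the PKP2 groups overlapped.

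Several HCC827 intervals were nevertheless narrow beside the A549 changes. JUP was at 4.10 and 3.99 in HCC827 mock and at 4.27 and 4.14 in TRIM58-WT (difference 0.16, interval -0.21 to 0.53). EPCAM was at 6.19 and 6.38 in mock and at 6.19 and 6.40 in TRIM58-WT (difference 0.01, interval -0.41 to 0.43). CLDN4 was at 7.56 and 7.48 in mock and at 7.54 and 7.51 in TRIM58-WT (difference 0.0048, interval -0.34 to 0.35). The EPCAM and CLDN4 groups overlapped, and JUP was slightly higher in TRIM58-WT.

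The remaining members in HCC827 went both ways. CGN was at 4.02 and 4.05 in mock and at 4.65 and 4.34 in TRIM58-WT, PPL at 0.04 and 0.27 against 0.69 and 0.92, and DSP at 3.40 and 3.20 against 3.96 and 3.71. These 3 were among the 12 of 33 members with both TRIM58-WT replicates above both mock replicates, and none was called (adjusted p = 0.235, 0.151 and 0.197). TJP3 was at -0.76 and -1.11 in mock and at -2.33 and -1.81 in TRIM58-WT, a difference of -1.14 (adjusted p = 0.121). It was the largest difference below 0 in HCC827, and the same scaffold fell in A549. DSC2, a desmocollin, differed by -1.02 (adjusted p = 0.204). CTNNB1 was at 4.01 and 3.81 in mock and at 3.55 and 3.53 in TRIM58-WT (adjusted p = 0.252), CTNNA1 at 5.14 and 5.07 against 5.39 and 5.06 (difference 0.12), and CTNND1 at 1.31 and 1.44 against 1.05 and 1.23 (difference -0.24). Of the catenins the CTNNA1 groups overlapped. TJP1 was at 2.43 and 2.37 in mock and at 2.68 and 2.56 in TRIM58-WT (difference 0.22).

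**Figure D3:**
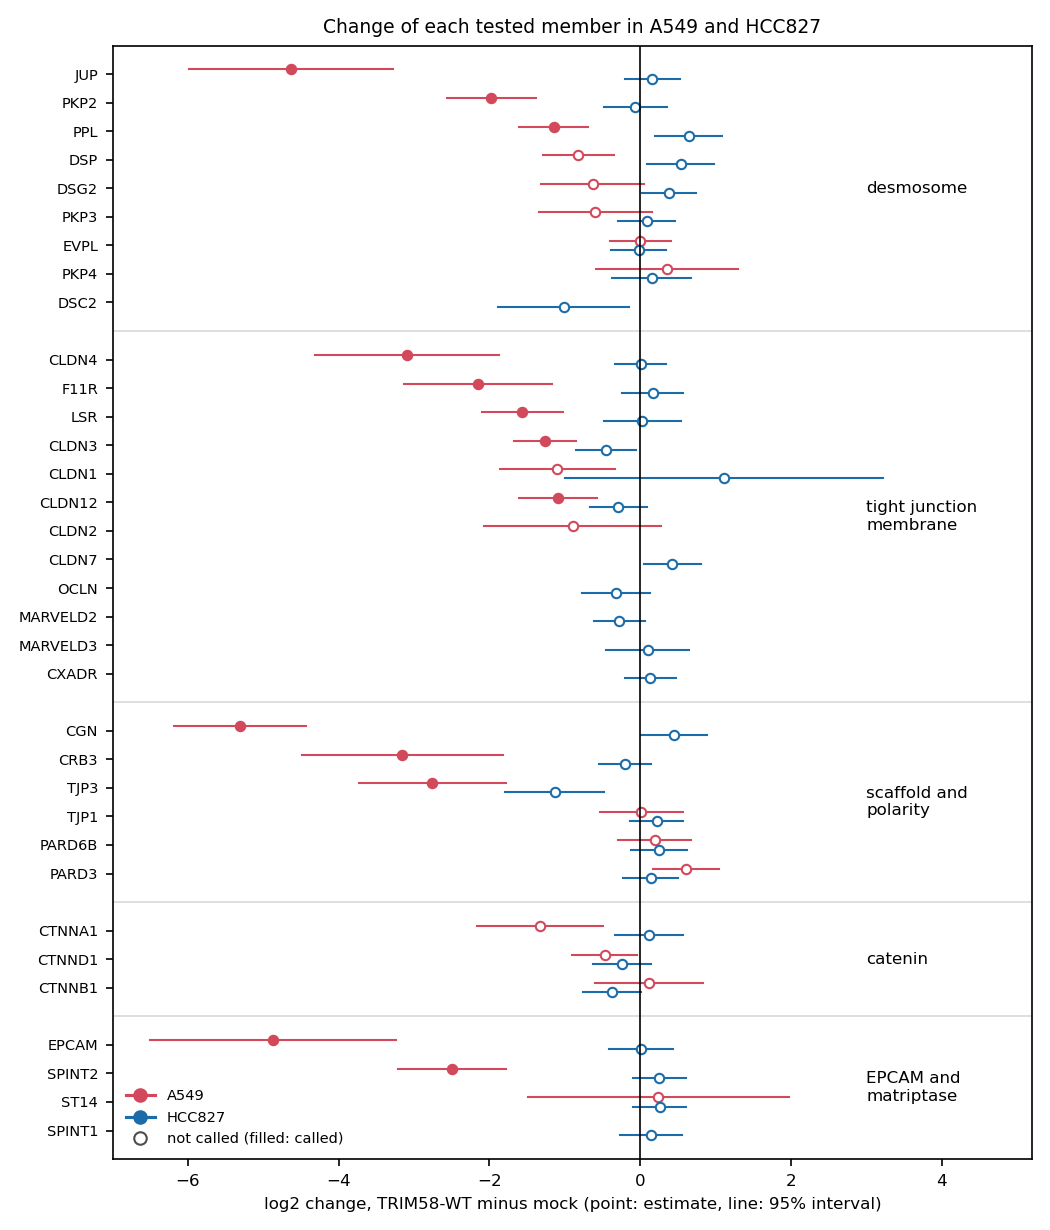
Log2 change, TRIM58-WT minus mock, on the x axis for each member tested (y axis, grouped by role), in A549 (red) and HCC827 (blue). Points are estimates, lines their 95% intervals, filled points were called and open ones were not. The filled points are the 13 A549 falls, from -5.31 for CGN to -1.10 for CLDN12, and no HCC827 point is filled.

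The change differed between lines for 8 members, all with a more negative change in A549 than in HCC827. Of 34 members tested in the contrast of both changes, 8 passed an adjusted p under 0.05 in this direction and 0 in the other, against 2.52% and 2.14% of 12838 genes. The difference of log2 changes (A549 minus HCC827) was -5.76 ± 0.51 (SE, adjusted p = 0.0011) for CGN, -4.89 ± 0.95 (0.0291) for EPCAM and -4.80 ± 0.78 (0.0159) for JUP. These 3 also had the largest fitted falls in A549. It was -2.75 ± 0.41 (adjusted p = 0.0112) for SPINT2, -1.91 ± 0.35 (0.0238) for PKP2 and -1.80 ± 0.28 (0.0134) for PPL. It was -1.60 ± 0.34 (adjusted p = 0.0402) for LSR and -1.36 ± 0.29 (0.0403) for DSP, which was called in neither line alone. No A549 TRIM58-WT array was well above background for CGN and PPL, 1 of 3 was for EPCAM and 2 of 3 for PKP2, so their sizes are fitted values.

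By role, 4 of 9 desmosome genes tested passed this contrast, 1 of 12 tight junction membrane genes, 1 of 6 scaffold genes, 0 of 3 catenins and 2 of 4 of EPCAM and the matriptase system. CLDN4 (-3.10, adjusted p = 0.0512), F11R (-2.32, adjusted p = 0.066) and CRB3 (-2.96, adjusted p = 0.0794), which fell in A549, were not shown to differ between lines. For the other F11R probe the value was -0.84 (adjusted p = 0.498). TJP3 differed by -1.62 (adjusted p = 0.191), CLDN3 by -0.80 (0.117) and CLDN12 by -0.80 (0.202). The contrast also depended on single replicates. Leaving out HCC827 mock 1 left 1 call, HCC827 TRIM58-WT 2 left 2, and A549 mock 1, HCC827 mock 2 or HCC827 TRIM58-WT 1 left 3 each. Without A549 mock 2 or A549 TRIM58-WT 3 there were 4, without A549 TRIM58-WT 2 there were 5, without A549 TRIM58-WT 1 there were 11, and without A549 mock 3 there were 17. Probe calls in this direction moved alike, from 419 of 20642 to 221 of 20687 without A549 mock 2 and 1205 of 21005 without A549 mock 3. CGN was called in all 10 of these fits.

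The mock cells of both lines already differed widely in junction genes. HCC827 mock was higher than A549 mock for 15 of 34 members tested and lower for 3. Over 12392 genes tested 16.5% were higher and 15.6% lower. DSC2, CLDN7, OCLN, MARVELD2, MARVELD3, CXADR and SPINT1 passed the filter only through HCC827 and CLDN1 and CLDN2 only through A549, so these 9 had to differ. Of the 25 members with every array well above background, 8 were higher (CLDN4, CLDN3, EPCAM, ST14, CGN, PPL, CLDN12 and PARD6B) and 1 lower (PKP2), against 10.3% and 12.9% of 14775 probes. The median difference was 0.72 over the members and 0.061 over all genes tested. The 15 were CLDN7, CLDN4, CLDN3, OCLN, SPINT1, EPCAM, ST14, DSC2, CXADR, CGN, MARVELD3, PPL, CLDN12, MARVELD2 and PARD6B, and the 3 were CLDN2, CLDN1 and PKP2. Claudins and other membrane proteins made up 8 of the 15. By role, on the chosen probes, 8 of 12 tight junction membrane genes, 2 of 6 scaffold genes, 2 of 9 desmosome genes, 0 of 3 catenins and 3 of 4 of EPCAM and the matriptase system were higher in HCC827.

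The claudins split between the lines. CLDN7 was at -2.09, -2.44 and -3.63 in A549 mock and at 4.82 and 4.87 in HCC827 mock, a difference of 7.56 ± 0.48 (SE, n = 3 and 2, adjusted p = 0.00034). CLDN4 was 6.87 ± 0.60 (SE) higher in HCC827 mock (adjusted p = 0.000872) and CLDN3 5.37 ± 0.19 higher (adjusted p = 7.22e-05), with A549 mock at -0.53 to 1.31 and at -0.25 to 0.10. All of these HCC827 values lay far above all A549 values. CLDN2 went the other way, at 4.15, 4.23 and 4.12 in A549 mock against -4.12 and -4.15 in HCC827 mock, where neither array was well above background. CLDN2 was at least 169-fold lower in HCC827 (adjusted p = 3.21e-05).

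CLDN1 was also lower in HCC827 mock, by 2.74 ± 0.68 (SE, adjusted p = 0.0261). The HCC827 mock replicates were at -2.73 and -0.44, the former not well above background, against 0.91 to 1.48 in A549 mock, and the call was lost without A549 mock 1 or A549 mock 2 (adjusted p up to 0.0726). OCLN, the first known tight junction membrane protein, was on its chosen probe at -3.33, -3.20 and -4.52 in A549 mock, not well above background on any array, and at 1.01 and 0.75 in HCC827 mock. On that probe OCLN was at least 13.6-fold higher in HCC827 (adjusted p = 0.00122). The other OCLN probe, well above background on 6 of the 11 arrays, was 3.30 higher on the log2 scale (adjusted p = 0.000148), a smaller difference than that bound. In HCC827 TRIM58-WT the chosen probe was at 0.67 and 0.46, and in A549 TRIM58-WT at -4.41, -4.57 and -4.58, again not well above background. OCLN and MARVELD2 lie on chromosome 5 as CTNNA1 does.

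SPINT1, a Kunitz inhibitor like SPINT2, was at -1.56, -2.07 and -3.98 in A549 mock and at 1.84 and 1.94 in HCC827 mock. SPINT1 (4.43 ± 0.73, SE), EPCAM (4.26 ± 0.72) and ST14 (4.06 ± 0.41) were likewise higher in HCC827 mock, with adjusted p of 0.00698, 0.00762 and 0.00142. For EPCAM, A549 mock stood at 2.72, 2.78 and 0.59 and HCC827 mock at 6.19 and 6.38. SPINT2, the other matriptase inhibitor, was at 6.61 to 7.60 in A549 mock and at 6.93 and 6.91 in HCC827 mock, and did not pass (difference -0.34, adjusted p = 0.465). PKP2 was 1.19 ± 0.19 (SE) lower in HCC827 mock (adjusted p = 0.00615). JUP (-0.47), DSP (-0.68), CTNNB1 (-0.08), CTNNA1 (0.67), CTNND1 (0.61), TJP1 (-0.18) and CRB3 (0.13) were not called between the mock groups on the chosen probes. The other CTNNA1 probe, well above background on all 11 arrays, was 2.22 higher in HCC827 mock (adjusted p = 0.00277). Leaving out HCC827 mock 1 left 10 of the 18 calls and HCC827 mock 2 left 11.

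**Figure D4:**
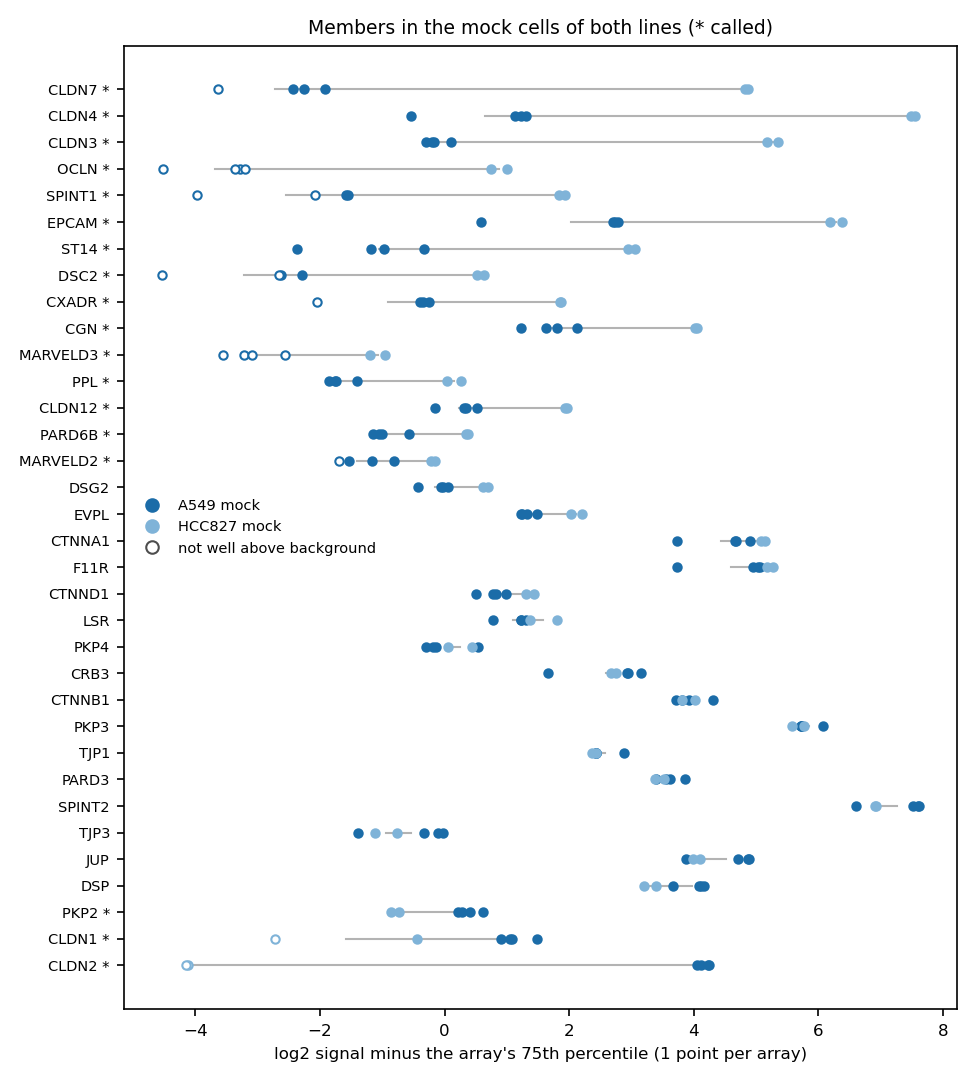
Level of each member tested between the mock groups (y axis) on each A549 mock array (dark) and HCC827 mock array (light), as log2 signal minus the array's 75th percentile (x axis). Grey lines join the group means, open points were not well above background, and stars mark the 18 calls. HCC827 lies to the right for CLDN7 down to MARVELD2 among the starred genes, and to the left for PKP2, CLDN1 and CLDN2, and rows are different probes whose levels do not compare.

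Across the 4 groups, the members that fell in A549 followed different orders. On the chosen probes JUP, CRB3, F11R, SPINT2 and LSR were not called between the mock groups, with group means over both mock groups and HCC827 TRIM58-WT of 4.05 to 4.51 for JUP and 2.51 to 2.71 for CRB3, and were low in A549 TRIM58-WT alone (means -0.12 and -0.57). The other F11R probe also differed by -0.72 between HCC827 TRIM58-WT and mock, without a call. EPCAM, CLDN3, CLDN4, CLDN12, CGN and PPL stood in 3 steps, highest in both HCC827 groups, lower in A549 mock and lowest in A549 TRIM58-WT. For EPCAM these means were 6.29 and 6.30, then 2.03, then -2.85. PKP2 was highest in A549 mock (0.39 ± 0.20, SD), with both HCC827 groups at -0.80 and -0.86 and A549 TRIM58-WT lowest at -1.58 ± 0.40 (SD). TJP3 followed none of these orders, with means of -0.54 and -0.93 in the mock groups of A549 and HCC827, -2.07 in HCC827 TRIM58-WT and -3.30 in A549 TRIM58-WT. The HCC827 groups were not called against each other for any member. HCC827 TRIM58-WT was not tested against the A549 groups.

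A list of 60 other junction genes, with the remaining claudins, nectins, polarity proteins and cadherins, did not lean the same way in A549. This list too was chosen with earlier results of these data known, so the contrast with the members is no test. Of 29 tested 1 fell and 3 rose, with a median change of 0.15. SHROOM3, an apical constriction protein that binds actin, fell by 3.26 ± 0.23 (SE, adjusted p = 0.00133), from 0.97, 1.11 and 0.54 in mock to -2.13, -2.68 and -2.34 in TRIM58-WT. CDH2, neuronal cadherin, rose by 2.72 ± 0.62 (SE, adjusted p = 0.0472), from 1.22, 1.37 and 3.60 to 4.71, 4.84 and 4.79. The actin bundling gene LIMA1 rose by 2.08 (adjusted p = 0.0334), and the cingulin paralogue CGNL1 was at least 2.40-fold higher (adjusted p = 0.0416). CGN passed the filter only through mock and its paralogue CGNL1 only through TRIM58-WT. Both thus had to differ in these directions, and their opposite changes are no separate result. SHROOM3 also passed only through mock, with 1 of 3 TRIM58-WT arrays well above background. CDH1, the epithelial cadherin that the catenins bind, was at 2.67, 2.82 and 2.35 in mock and at 1.80, -0.54 and -0.40 in TRIM58-WT, and was not called (difference -2.33, adjusted p = 0.0716). In HCC827 0 of 34 of these genes were called in limma (10 at an unadjusted p under 0.05, 2 of them lower, lowest adjusted p = 0.0659). The change differed between lines for SHROOM3 (-3.00, adjusted p = 0.00367) and CDH2 (4.07, adjusted p = 0.0431) among 36 tested. Between the mock groups 14 of 33 were higher in HCC827 and 4 lower. PRSS8, a membrane protease that acts with matriptase, was at least 141-fold higher in HCC827 mock. The fitted difference of CDH3, placental cadherin, was 8.46, with 1 of 4 A549 mock arrays well above background. PRSS8 and CDH3 passed the filter only through HCC827 and so had to differ.

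Markers of other cell types were measured beside these changes. Of 13 mesenchymal or fibroblast markers 8 were well above background on some array. COL1A2, COL3A1, DCN, PDGFRB and THY1 were well above background on none. The summed level of all 13 was taken in multiples of the 75th percentile signal. It was 30.9 to 194 on A549 mock, 123 to 397 on A549 TRIM58-WT, 2.85 to 3.67 on HCC827 mock and 5.44 to 7.94 on HCC827 TRIM58-WT arrays. The brightest probes set most of such a sum, in A549 that of VIM. The 5 markers tested in A549 had a median change of 1.75, with 0 of them below 0. Of these CDH2 was called higher, while TWIST1 (1.75, adjusted p = 0.051), ZEB1 (1.15, 0.14) and ACTA2 (0.69, 0.0593) were not called. Of the 4 tested in HCC827, 1 (TWIST1, an E-box binding regulator) fell. It was at least 2.17-fold lower and passed the filter only through mock, so it had to differ. Between the mock groups 4 of 5 tested were lower in HCC827: VIM, CDH2, ACTA2 and ZEB1. ACTA2 passed the filter only through A549 and so had to differ. VIM, the mesenchymal intermediate filament, was at 4.76, 4.82 and 7.48 in A549 mock and at 6.53, 8.50 and 8.21 in TRIM58-WT, and was not called (adjusted p = 0.203). On mock 3, where EPCAM, JUP and CLDN4 were lowest among the mock replicates, VIM and CDH2 were highest. LUM, of the same list but not tested in A549, went the other way. It was at 0.07, -0.07 and -4.18 in the mock replicates and at -4.80, -4.55 and -4.56 in TRIM58-WT, where no array was well above background. Of 9 lung epithelial and adenocarcinoma markers 6 were tested in A549 and 2 fell. These were KRT8 and KRT19, the latter at least 723-fold lower (7.30, 7.52 and 6.11 in mock, -2.56, -2.47 and -2.56 in TRIM58-WT). KRT19 passed the filter only through mock and so had to differ. In HCC827 0 of 8 tested were called. The summed level of the list was 1510 to 2300 on A549 mock, 1100 to 1720 on A549 TRIM58-WT, 1410 to 1460 on HCC827 mock and 1620 to 1830 on HCC827 TRIM58-WT arrays. KRT7 and KRT18 made up most of the A549 sums. The part of these marker differences in the junction genes was not tested. Of 4 leukocyte and endothelial markers CD3E, PECAM1 and CDH5 were well above background on no array, and the summed level was 0.295 to 0.771 on A549 and 0.304 to 0.367 on HCC827 arrays. In RNA of whole cultures, fewer cells that express a gene and less RNA per cell cannot be told apart.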

How the data were processed

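RNA of A549 and HCC827 stable transfectants was labelled with Cy3 and hybridised to Agilent SuperPrint G3 arrays, 11 in all. The authors deposited 1 scanner file per array, made with Agilent Feature Extraction (version 10.7 per the labels). The deposited spot intensity used here is the processed signal, which the authors' software had made by background correction. They also deposited a table of log2 values made in Gene Spring, which was used as an alternative: 95.5% of its values lay within 0.01 of the log2 values computed here, up to a constant per probe, and its column medians ran from -0.126 to 0.462.

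Control and outlier spots were left out, spots of a probe averaged, and the 75th percentile of each array subtracted from log2 intensity. No spot was saturated, and 40.1 to 50.0% of probes per array stood well above background (over 0.5 of a probe's spots), which limits the precision of dim genes. With so few arrays, their number sets the precision. RefSeq accessions (28302 of 42405 probes) were named through the GRCh38.p14 gene table, which named 27241 probes of 20249 genes. Where all arrays of a group were dim, "at least N-fold" sets the brighter group's mean against the dim group's mean of the higher of 2 values per array: the probe's own signal and the lowest one that any probe well above background had.

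limma 3.58.1 in R 4.3.3 (lmFit, eBayes) was fitted over all tested probes with Benjamini-Hochberg adjustment, each pair of groups apart and the difference of changes over all 4 groups. It called 1171 of 16924 probes in A549, 173 of 19563 in HCC827, 796 of 20642 for the difference and 5906 of 19505 between mocks. The fit was tested on simulated data with 200 changed probes. Percentages of all genes use 1 probe per gene. Alternatives covered normalization (quantile, median), background correction (normexp, offset 50), the filter, the samples in the fit, the replicate and slide as blocks, the Welch test, outlier spots, the near-alike arrays, the other probes of a gene, and each replicate left out. Same-numbered A549 replicates deviated with r of 0.503, -0.423 and 0.503, so the numbers do not pair them.

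The members and gene lists were chosen with earlier results of these data known. Members named with values per replicate were those called in either line or in the difference, EPCAM, JUP, DSP, the catenins, OCLN and TJP1, and, for the mock groups, the 5 largest called differences in each direction, some given as ranges. Other junction genes are named where called in A549 or in the difference, besides CDH1. Of those called between mocks 2 of the largest are named, and 1 is not reported here. Sequences are from RefSeq. Motif shares count windows. Figures were drawn with matplotlib 3.10.9.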

Additional observations from a re-analysis of the deposited data

Results flagged for a closer look

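The change from mock to TRIM58-WT differed between the lines by the contrast of both changes in 8 members. The difference of log2 changes, A549 minus HCC827, was -5.76 for CGN, -4.89 for EPCAM, -4.80 for JUP, -2.75 for SPINT2, -1.91 for PKP2, -1.80 for PPL, -1.60 for LSR and -1.36 for DSP. In the first 7 named the A549 change passed its own test and the HCC827 change did not. DSP passed neither, and lay lower in A549 TRIM58-WT (-0.82) and higher in HCC827 TRIM58-WT (0.54) than in mock. Its groups did not overlap in either line, which in HCC827, with 2 replicates a group, was common among the members. No group held enough replicates for a test of single outlying samples.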

How the results depend on the processing

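No called member changed direction under any alternative run. Of 13 A549 calls, 7 remained with normexp background correction, 8 with no filter, 7 with every array well above background, 4 with TRIM58-WT 2 and 3 averaged and 0 with the Welch test, and 3 to 15 were made with single replicates left out. In HCC827 the count of 0 became 1 (TJP3, lower) with the median shift and stayed at 0 with each replicate left out. For the difference between lines the 8 became 4 with normexp, 4 with no filter, 4 with every array well above background, 13 with the slide as a block, 5 with TRIM58-WT 2 and 3 averaged, and 1 to 17 with single replicates left out. Of 18 calls between mocks, 9 remained with every array well above background, 8 with the Welch test, and 10 to 18 with single replicates left out. With all probes of a gene counted, 20 members were called between mocks, with PKP4 and CTNNA1 added. With the replicate number as a block, 12 of 13 members (without PPL) were called in A549, 0 in HCC827 and 2 of 8 (CGN and JUP) for the difference. Quantile scaling ended the call of DSP and PKP2 for the difference and added CLDN4, and median scaling ended those of DSP, PKP2 and LSR and added CLDN4, F11R and CRB3. Median scaling moved the median change of all genes by -0.369 in A549 and -0.399 in the difference, and the A549 median of the members from -1.10 to -1.47. It turned the A549 probe calls from 580 lower and 591 higher to 828 and 285, and those for the difference from 419 and 377 to 380 and 147. Normexp cut the A549 probe calls from 1171 to 507, no filter to 609, the averaging of TRIM58-WT 2 and 3 to 333 and the Welch test to 24. Fewer samples or more probes tested are part of some of these settings, and otherwise the cause was not tested. Background limits the size of change for CGN, CLDN4, TJP3 and PPL in A549 TRIM58-WT, and in part for EPCAM and PKP2.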
